A study of Rattus norvegicus with 3 samples.

Results

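Olfactory receptors form the largest receptor family of the rodent genome, and 267 probes for them were measured on every array of a rat vestibular nucleus series. The 267 probes were chosen by a rule on measured values. Their gene symbol begins with Or or Olr and a digit, and their spot was well above background, unsaturated and free of outlier flags on all 3 arrays. They represent 267 different genes, each by 1 probe on 1 spot, out of 1092 olfactory receptor probes for 1088 genes and out of 41012 probes in all. All 267 genes are annotated as protein coding. The gene Olr1 meets the letters of the rule but encodes the receptor for oxidized low-density lipoprotein, so it was left out. Its level was -4.60, -5.06 and -5.51 on the sham, day 1 and day 7 arrays.

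Olfactory receptors are membrane receptors coupled to G proteins. In the nose, a mature sensory neuron expresses a single receptor gene, odorant binding activates the olfactory G protein and adenylyl cyclase 3, and cyclic AMP opens a cation channel. The genes mostly have a coding sequence without introns, and they lie in large clusters of close copies that arose by duplication. Class I receptors (families Or51 to Or56) are the older branch shared with fish, and class II receptors make up the remainder. Receptor transcripts are also found outside the nose.

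The tissue was the vestibular nuclei, where nerve fibres of the balance organ end in the brainstem. The animals were male Sprague-Dawley rats, adult and weighing 200 to 250 g. They lost the labyrinth of the left ear by surgery, and the nuclei of the operated side were taken 1 day or 7 days later. The controls are labelled sham-operated, although the protocol text calls them normal, and they are called sham here. Each group had 3 rats and 1 array, so the RNA of 3 rats appears to have been pooled, and no difference below has a replicate check or a p-value. In such bulk RNA, fewer cells of a type and less RNA per cell cannot be told apart. All 3 arrays lay on 1 slide, at position 4 for sham, 3 for day 1 and 2 for day 7, so position and group cannot be told apart.

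A level is the log2 of the processed signal minus the log2 of the array's 75th percentile of signal, which was an intensity of 5692 in sham, 5242 at day 1 and 5676 at day 7. A level of 0 thus equals that percentile. Differences are between levels of the same probe, and "higher" or "lower" without a size means at least 2-fold. The value after ± is the error that the scanner software reports for the spots of both arrays, which had a median of 0.23 on the log2 scale for a difference between arrays. It covers the measurement of a spot and not the spread between animals. Levels of different probes depend on the probe as well as the RNA, so they describe signal and are not ranked as RNA amounts.

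The sequences around the start codon of 4 members are shown because the results turn on such genes. They were chosen after their values were seen, among members with a window. Or5p5 and Or10g9 were higher on both days after surgery, and Or52z1 and Or2av9 were higher at day 1 and lower at day 7. Each is 300 bases of the RefSeq GRCr8 assembly, 250 before the annotated gene start and 50 from it on. All 4 genes lie on the minus strand, and the windows are written 5′ to 3′ along the gene. The Or5p5 window is chr1:171172145-171172444, the Or10g9 window is chr8:49250480-49250779, the Or52z1 window is chr1:167619087-167619386 and the Or2av9 window is chr10:43175266-43175565. Capitals mark the start codon and the letters TAATTA, the core that LIM-homeodomain proteins such as Lhx2 bind.
Or5p5: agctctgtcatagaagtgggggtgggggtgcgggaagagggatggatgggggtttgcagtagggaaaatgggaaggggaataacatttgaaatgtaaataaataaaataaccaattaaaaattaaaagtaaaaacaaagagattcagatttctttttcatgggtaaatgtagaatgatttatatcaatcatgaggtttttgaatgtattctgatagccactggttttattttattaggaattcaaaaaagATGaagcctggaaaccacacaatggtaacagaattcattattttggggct
Or10g9: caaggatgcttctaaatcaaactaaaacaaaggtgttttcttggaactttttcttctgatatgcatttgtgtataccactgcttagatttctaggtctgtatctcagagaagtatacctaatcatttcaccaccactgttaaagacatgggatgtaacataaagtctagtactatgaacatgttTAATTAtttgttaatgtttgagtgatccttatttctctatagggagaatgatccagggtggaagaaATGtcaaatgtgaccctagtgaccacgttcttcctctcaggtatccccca
Or52z1: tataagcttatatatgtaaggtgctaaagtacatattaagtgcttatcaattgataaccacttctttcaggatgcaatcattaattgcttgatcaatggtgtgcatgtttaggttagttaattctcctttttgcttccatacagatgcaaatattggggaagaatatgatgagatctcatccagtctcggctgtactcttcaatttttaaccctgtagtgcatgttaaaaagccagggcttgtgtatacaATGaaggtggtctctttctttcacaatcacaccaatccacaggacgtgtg
Or2av9: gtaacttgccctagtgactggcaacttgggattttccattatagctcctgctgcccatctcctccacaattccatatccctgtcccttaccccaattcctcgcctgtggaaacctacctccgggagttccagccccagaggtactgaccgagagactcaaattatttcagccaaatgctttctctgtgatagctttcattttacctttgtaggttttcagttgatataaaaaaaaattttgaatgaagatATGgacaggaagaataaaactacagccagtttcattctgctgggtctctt
Of the 267 members, 218 had such a window, and in all 218 the annotated start was the ATG of the coding sequence. The same held for 97.1% of the 1085 olfactory receptor genes with a window and for 8.999% of all 33469 genes. The windows therefore describe the coding start and not a known transcription start. The letters TAATTA read the same on both strands and occurred in 41 of the 218 members (18.8%), in 19.3% of all olfactory receptor windows and in 5.36% of all windows. The letters CCCNNGGG, the core of the site for the Ebf proteins, also the same on both strands, occurred in 3 members (1.38%), against 1.20% of olfactory receptor windows and 12.4% of all windows. Neither set of letters overlaps the other. Members' windows had a median GC content of 36.8%, close to the 35.3% of all olfactory receptor genes and below the 51.7% of all genes. The 41 members with TAATTA had median differences from sham of 0.68 at day 1 and 0.65 at day 7, and the 177 without it had 0.60 and 0.74, so members with and without these letters both lay above sham.

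Most olfactory receptor probes gave no signal well above background. On no array were 656 of the 1092 (60.1%) well above background, and 272 were so on all 3, of which 5 were left out for saturation or an outlier flag. The others were well above background on sham alone (39), day 1 alone (25), day 7 alone (33), sham and day 1 (21), sham and day 7 (27) or day 1 and day 7 (19). By array, 359 olfactory receptor probes (32.9%) were well above background in sham, 337 (30.9%) at day 1 and 351 (32.1%) at day 7, while other probes reached 82.4%, 78.4% and 78.1%. The lowest signal counted as well above background was an intensity of 66.9 in sham, 109 at day 1 and 122 at day 7. A dim member therefore had to be brighter on the arrays after surgery to be kept, so the rule itself favours members that are higher after surgery among the dim ones.

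The members were dim as a group. Their levels ran from -6.13 to 1.59 in sham with a median of -4.07, from -5.46 to 3.43 at day 1 with a median of -3.57, and from -5.38 to 2.31 at day 7 with a median of -3.50. The 28416 other probes that met the same rule had medians of -1.32, -1.28 and -1.27. In intensity units the members' medians were 340 in sham, 440 at day 1 and 502 at day 7. The 153 negative control spots had medians of 15.2, 23.7 and 26.9 in the same order, so the control spots were also brighter after surgery. The part of that difference in the members' values was not tested. The local background around the members' spots was level, with medians of 47, 48 and 47. At the dim edge of the rule, Or2z2 had levels of -6.08, -5.21 and -5.22, Or2y16 had -5.96, -5.17 and -5.38, and Or5p68 had -6.08, -5.32 and -4.96 in sham, day 1 and day 7.

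**Figure D1:**
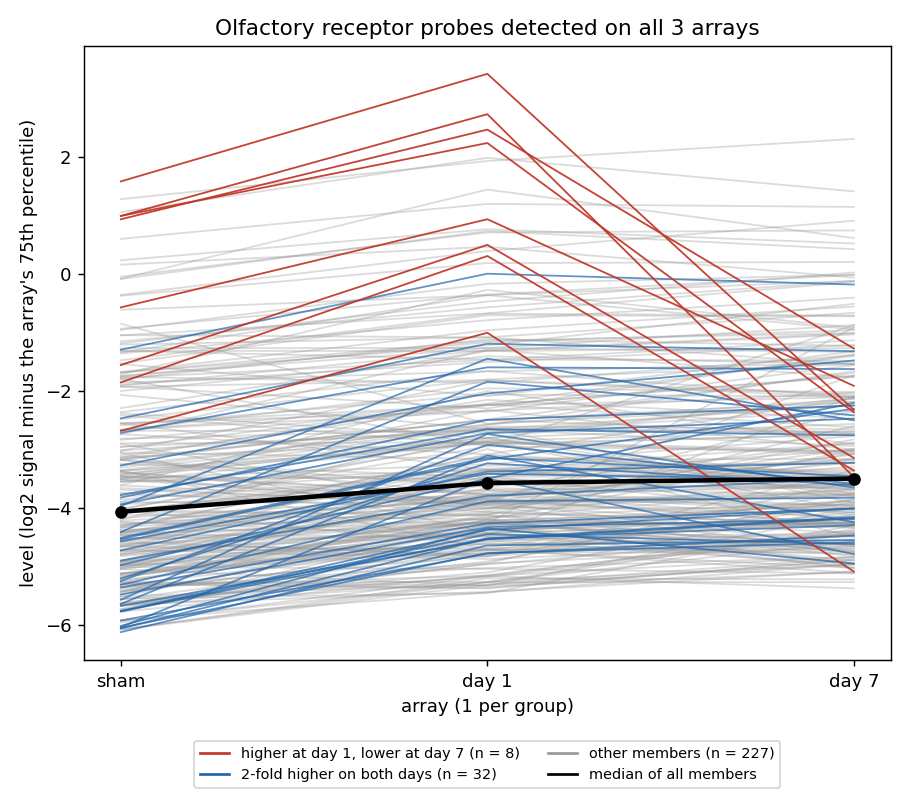
Level of each of the 267 members (log2 signal minus the array's 75th percentile, vertical axis) on the sham, day 1 and day 7 arrays (horizontal axis, 1 array per group), with 1 line per member and the median in black. The median goes from -4.07 through -3.57 to -3.50, the 32 members in blue are at least 2-fold higher on both days, and the 8 in red are at least 2-fold higher at day 1 and lower at day 7.

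The brightest members, by mean level, did not all behave alike. Or3a4 had levels of 1.28 in sham, 1.93 at day 1 and 2.31 at day 7. Or2d36b had 1.06, 1.99 and 1.41, and Or2b11 had 0.60, 1.20 and 1.15. Both of these were highest at day 1, and Or3a4 at day 7. Or1e22 had -0.08, 1.45 and 0.62, a day 1 difference above 2-fold. Olr1454 (0.24, 0.77 and 0.52), Or4a47 (-0.04, 0.71 and 0.75), Or2v2 (-0.08, 0.74 and 0.42) and Or52k1 (-0.36, 0.40 and 0.91) were all above sham on both days. The other two of the 10 brightest, Or2av9 and Or13l2, were far below sham at day 7 and are described below.

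At day 1, 67 of the 267 members (25.1%) were at least 2-fold higher than in sham and 5 (1.87%) were lower, while 195 were within 2-fold. Over all 28684 probes that met the rule, 7.12% were higher and 3.75% lower. The members' median difference was 0.60, which is 1.51-fold, with quartiles of 0.21 and 1.00, and 217 members (81.3%) lay above 0. The median of the other probes was 0.02. Other probes were higher more often when dim, so they were also weighted to the members' brightness in 4 bins of mean level. From the dimmest bin to the brightest, 17.7%, 14.6%, 10.8% and 4.37% of other probes were higher. In the same order, 2.92%, 7.95%, 7.24% and 2.63% were lower. At the members' brightness, other probes had a median of 0.17, and 11.8% were higher, 5.18% lower and 59.2% above 0. The members' counts on the higher side thus lay above those of other probes of the same brightness, by a margin that has no test with 1 array per group. With the normexp background correction, 16.1% of the members were higher and 0.749% lower, and the members' median was 0.55 against 0.18 at the same brightness.

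The 6 receptors with the largest day 1 differences were all lowest in sham. Or5aq1d had levels of -5.57 in sham, -2.74 at day 1 and -3.65 at day 7, a day 1 difference of 2.84 ± 0.28. Or5p5 had -4.41, -1.84 and -2.42, a difference of 2.57 ± 0.22. Both stayed above sham at day 7. Olr1049 had -6.04, -3.50 and -4.79, and Or8g36c had -5.64, -3.10 and -4.24, with differences of 2.54 each. Or2ag2 had -3.97, -1.45 and -2.50, and Or12d13 had -5.25, -2.92 and -3.59, with differences of 2.52 and 2.33. All 6 were highest at day 1.

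The 5 members that were lower at day 1 were Or13e8, Or4a77, Or14c39, Or52p2 and Or9s13. Or13e8 had levels of -0.85 in sham, -2.56 at day 1 and -2.24 at day 7, a day 1 difference of -1.71 ± 0.21. Or4a77 had -3.06, -4.42 and -3.86, and Or14c39 had -3.36, -4.71 and -4.07. These 3 were highest in sham. Or9s13 had -2.90, -4.00 and -4.00, lower by about the same amount on both days. Or52p2 had -1.79, -2.94 and -0.87, so it was below sham at day 1 and above it at day 7. The next lowest at day 1, Or8c18, had -2.55, -3.35 and -3.35 and did not reach 2-fold.

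At day 7, 79 members (29.6%) were higher than in sham and 10 (3.75%) lower, while 178 were within 2-fold. Over all probes that met the rule, 10.2% were higher and 5.66% lower. The members' median difference was 0.71, which is 1.63-fold, with quartiles of 0.29 and 1.08, and 221 members (82.8%) lay above 0. Other probes at the members' brightness had a median of 0.21, and 16.7% were higher, 6.54% lower and 59.4% above 0. With normexp, 19.5% of the members were higher, and the median was 0.64 against 0.19 at the same brightness. Both comparisons use the same sham array, so a signal that was low on that array enters both.

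The members highest at day 7 against sham were only partly those that led at day 1. Or13a18b had levels of -4.56 in sham, -4.26 at day 1 and -0.91 at day 7, a day 7 difference of 3.65 ± 0.22 against 0.30 at day 1. Or6b2 had -4.24, -4.47 and -2.09, a day 7 difference of 2.15. Both were near their sham level at day 1. Or10g9 had -4.98, -3.50 and -2.20, and Or2d3c had -4.53, -3.17 and -2.30, so both lay above their day 1 level at day 7, with day 7 differences of 2.77 and 2.23. Or5p5 and Or5aq1d, the leaders at day 1, completed the first 6 with day 7 differences of 1.99 and 1.92.

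**Figure D2:**
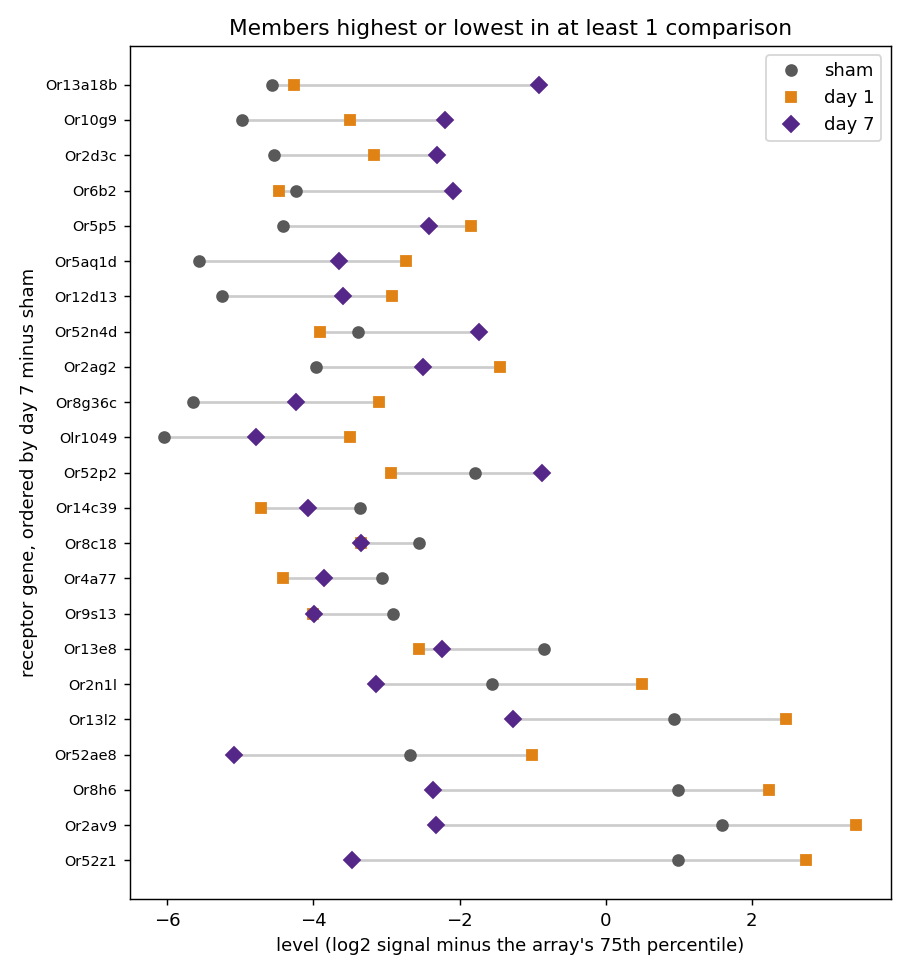
Levels (log2 signal minus the array's 75th percentile, horizontal axis) of the 23 members among the highest or lowest in at least 1 comparison of arrays, in sham (circles), day 1 (squares) and day 7 (diamonds), with 1 row per receptor ordered by day 7 minus sham. Or13a18b at the top lies at -4.56, -4.26 and -0.91, and Or52z1 at the bottom lies at 0.99, 2.74 and -3.47.

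On both days 32 members (11.99%) were at least 2-fold higher than in sham, against 3.27% of all probes that met the rule and 5.80% of other probes of the same brightness. They came from many families, with 6 of Or5, 4 of Or8, 3 each of Or2, Or6, Or10 and the Olr symbols, 2 each of Or9, Or12, Or51 and Or52, and 1 each of Or3 and Or11. Among the Or5 members were Or5aq1d, Or5p5, Or5aq7 (-6.06 in sham, -4.52 at day 1 and -4.16 at day 7), Or5p6b (-3.78, -2.65 and -2.76) and Or5p73 (-6.02, -4.35 and -4.95). All 5 were lowest in sham, which their choice as higher on both days requires. Lower on both days were 2 members, Or13e8 and Or9s13. In direction alone, 193 members (72.3%) lay above sham on both days, against 35.8% of other probes and 45.4% of those of the same brightness. Below sham on both days were 22 members, and 148 (55.4%) stayed within 2-fold of sham on both. Shares of other probes are not given for the counts lower, below or within 2-fold on both days, so those counts have no comparison.

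Sham was the lowest array for 193 members and the highest for only 22 (8.24%), while 106 (39.7%) were highest at day 1 and 139 (52.1%) at day 7. For other probes of the same brightness these shares were 26.8%, 32.0% and 41.2%. Sham was thus the highest array for a smaller share of the members than of other probes.

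A set of 8 members went the opposite way on the 2 days, at least 2-fold higher at day 1 and at least 2-fold lower at day 7. They were Or2av9, Or52z1, Or8h6, Or13l2, Or52ae8, Or2n1l, Or2t48 and Or52n1b. This pattern held in 0.457% of all probes that met the rule, in 0.293% of other probes of the members' brightness and in 3.00% of the members. Or2av9 had levels of 1.59 in sham, 3.43 at day 1 and -2.32 at day 7, which is an intensity of 17087, 56331 and 1134. Or52z1 had 0.99, 2.74 and -3.47, an intensity of 11342, 34912 and 511. Against sham, Or2av9 differed by 1.84 ± 0.20 and -3.91 ± 0.21, and Or52z1 by 1.74 ± 0.20 and -4.47 ± 0.22. Or2av9 was the brightest member in sham and at day 1 but not at day 7, and at day 7 Or52z1 lay near the median of all members.

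The remaining members of this set had the same order of arrays, which the choice of the set fixes. Or8h6 had levels of 0.99 in sham, 2.24 at day 1 and -2.37 at day 7. Or13l2 had 0.94, 2.47 and -1.27, and Or52ae8 had -2.68, -1.004 and -5.09. All 3 had day 1 above sham and day 7 far below it. Or2n1l (-1.56, 0.50 and -3.14), Or2t48 (-1.85, 0.31 and -3.36) and Or52n1b (-0.57, 0.94 and -1.91) lay below sham at day 7 by less. Of the 10 members that were lower at day 7, these 8 and the pair lower on both days make up the whole count. The 8 were chosen as lower at day 7, so leaving them out must reduce that share, to 0.772% of the remaining members.

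The same order of arrays appeared in 3 probes that the rule left out. Among 72 olfactory receptor probes that missed the rule on 1 array only, the 3 brightest were Or6z1, Or2d2b and Or2d2, and each was saturated at day 1 alone. Or6z1 had levels of 3.00 in sham, 3.61 at day 1 and 0.60 at day 7. Or2d2b had 2.45, 3.52 and -1.15, and Or2d2 had 1.99, 3.50 and -0.93. A saturated value is a lower bound, so their day 1 levels may be higher than shown. As shown, Or6z1 was within 2-fold of sham at day 1. All 3 were left out for saturation at day 1, so a bright day 1 signal comes with that choice. All 3 were lower at day 7 than in sham.

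Between the arrays after surgery the members differed less. From day 1 to day 7, 15 (5.62%) were higher, 14 (5.24%) lower and 238 within 2-fold, against 6.32% and 5.54% of all probes that met the rule, and 9.17% and 6.99% of other probes of the same brightness. The median difference was 0.13, with quartiles of -0.24 and 0.40 and 152 members (56.9%) above 0. The members' shares were close to those of all probes. Highest were Or13a18b at 3.35, Or6b2 at 2.39, Or52n4d at 2.18 (levels of -3.39, -3.91 and -1.73) and Or52p2 at 2.07, and lowest were Or52z1 at -6.21, Or2av9 at -5.75, Or8h6 at -4.61 and Or52ae8 at -4.08. Without scaling between the arrays, 62.9% of the members past 2-fold were on the higher side in this comparison, against 51.7% here.

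Some members held their level on all 3 arrays. Or6z3 had -1.27 in sham, -1.27 at day 1 and -1.33 at day 7. Or10g3c had -4.65, -4.71 and -4.73, Or4c35 had -5.01, -5.04 and -5.12, and Or8b8 had -3.05, -3.17 and -3.17. The range over the arrays was at most 0.11 for these 4, within the scanner error.

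The members' difference from sham varied less with brightness than that of other probes. Split into 4 bins by mean level from dimmest to brightest, the members' median difference at day 1 was 0.68, 0.57, 0.56 and 0.61, while other probes in the same brightness ranges had 0.40, 0.17, 0.11 and -0.01. At day 7 the members had 0.86, 0.74, 0.64 and 0.65, and other probes had 0.48, 0.23, 0.14 and -0.03. The gap was thus widest among the brightest members. In that bin, 15 of 67 members were higher and 2 lower at day 1, against 4.37% and 2.63% of 15459 other probes. At day 7, 14 were higher and 8 lower, against 6.42% and 5.18%.

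In the dimmest bin, 17 of 67 members were higher at day 1 and 28 at day 7, with none lower. Other probes of that bin were higher in 17.7% and 24.2%. Members far from the limit of detection give a view that the rule touches less. Of the 110 members with a sham intensity at least 4 times the highest limit of the 3 arrays, 17 were higher, 5 were lower and 82 lay above 0 at day 1, and their median was 0.56. At day 7, 19 were higher, 10 were lower and 81 lay above 0, and their median was 0.55. The 22861 other probes at or above that sham intensity had medians of -0.03 and -0.06, but they were not weighted to the members' brightness. Of these 110 members, 15.5% were higher and 4.55% lower at day 1, against 7.12% and 3.75% of all probes that met the rule. At day 7 the shares were 17.3% and 9.09%, against 10.2% and 5.66%. Both the higher and the lower shares lay above those of all probes, but all probes were not held to this cutoff. The cutoff is on the sham signal, from which both differences are taken, so it favours members that are lower after surgery. It kept all 5 members that were lower at day 1 and all 10 that were lower at day 7. These shares are therefore not a like comparison.

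**Figure D3:**
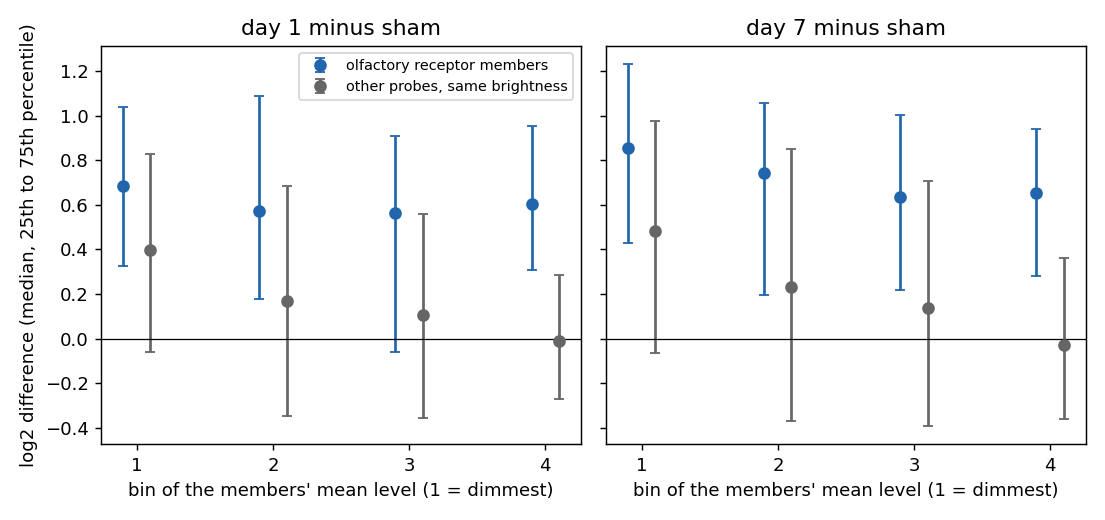
Median difference from sham on the log2 scale (vertical axis; bars run from the 25th to the 75th percentile of probes) at day 1 (left) and day 7 (right), for members (blue) and other probes (grey) in 4 bins of the members' mean level (horizontal axis, 1 = dimmest). The members stay between 0.56 and 0.86 in all bins, while other probes go from 0.40 and 0.48 in the dimmest to -0.01 and -0.03 in the brightest.

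By receptor class, 34 of 114 class I probes (29.8%), 222 of 927 class II probes (23.9%) and 11 of 51 probes with an Olr symbol were members. Class I members had median differences of 0.64 at day 1 and 0.87 at day 7, with 9 and then 12 higher. Class II members had 0.60 and 0.70, with 55 and then 62 higher. Both classes lay above sham by similar amounts.

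Medians ranged more widely over families than over classes, but the families are more numerous and smaller, which alone widens such a range. The 13 families with at least 5 members hold 245 of them, and their median at day 1 ran from 0.26 (Or14) to 0.80 (Or10). At day 7 it ran from -0.39 (Or14) to 1.11 (Or6). In Or6, 3 of 18 members were higher at day 1 and 12 at day 7, among them Or6b2, Or6b2b (levels of -3.27 in sham, -2.58 at day 1 and -1.66 at day 7) and Or6c88 (-5.21, -3.24 and -3.61). In Or14, with 5 members, 1 lay above sham at day 7 and none was higher than sham by 2-fold. In Or1, 4 of 16 members were higher at day 1 and none at day 7. Over all members, 25.1% were higher at day 1 and 29.6% at day 7. Other probes of the same brightness had 11.8% and 16.7%.

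The largest families by members were Or2, with 41 members (38.3% of its probes) and medians of 0.58 at day 1 and 0.57 at day 7, and Or4, with 32 of 142 probes and medians of 0.51 and 0.74. Or5 had 30 of 146 probes, Or8 23 of 118, and Or10 and Or52 had 21 members each, of 70 and 66 probes. The share of probes that were members ran from 11.3% (6 of 53) in Or7 to 42.9% (12 of 28) in Or9. Families are groups of related sequences, so their members can share signal and are not independent of each other.

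**Figure D4:**
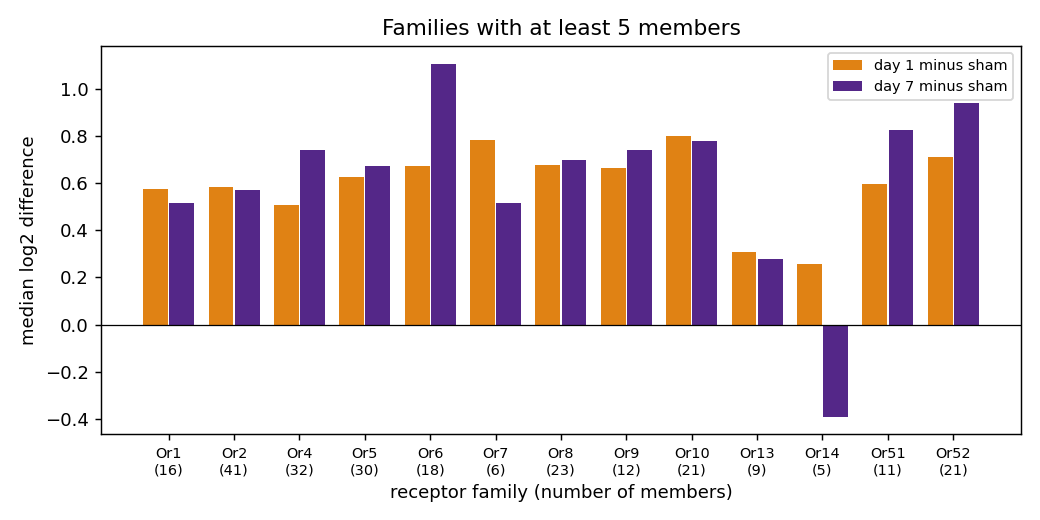
Median log2 difference from sham (vertical axis) at day 1 (orange) and day 7 (purple) in the 13 receptor families with at least 5 members, with the number of members under each name (horizontal axis). All families lie above 0 on both days except Or14 at day 7, at -0.39, and Or6 at day 7 is the tallest bar, at 1.11.

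Close copies of a receptor may bind the same probe, and the probe sequences were not used here. Of the members, 119 have a symbol with a lettered copy in the RefSeq table, and their medians were 0.56 at day 1 and 0.68 at day 7. The 148 without such a copy had 0.68 and 0.73. A lettered symbol does not measure how alike the probe targets are, and the part of shared binding in these values was not tested.

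Members next to each other in the RefSeq order of protein-coding genes did not always have similar differences. There were 56 such neighbouring pairs, involving 100 members, with a median gap between the partners' differences of 0.57 on each day. In 13 pairs at day 1 and 11 at day 7 the partners' differences were at least 2-fold apart. Both partners were higher in 7 pairs at day 1 and 6 at day 7. Of all single members, 25.1% and 29.6% were higher, which is not a like measure for pairs. Pairs that are not neighbours were not compared, so these values do not show whether neighbours are more or less alike. Or51f23c and Or51f4 differed from sham by 1.14 and 1.28 at day 1 and by 1.499 and 1.46 at day 7. Or8s10 and Or8s8 differed by 1.37 and 1.12, then 1.05 and 1.09. In contrast, Or2av9 and its neighbour Or2t48e were close at day 1, with 1.84 and 1.44, and far apart at day 7, with -3.91 and 0.97.

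By median, members lay above sham in every part of the array. In 3 parts of the array by row, their median difference was 0.58, 0.71 and 0.59 at day 1 and 0.64, 0.80 and 0.70 at day 7. By column it was 0.47, 0.70 and 0.66 at day 1 and 0.65, 0.73 and 0.73 at day 7.

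Other chemosensory receptors also lay mostly above sham where they were measured. Of 41 named probes for trace amine, vomeronasal and taste receptors, 9 met the same rule (22.0%), with median differences of 0.53 at day 1 and 0.47 at day 7. All 9 were above sham at day 1 and 8 at day 7. Other probes were not weighted to the brightness of these 9, so these counts and medians have no like comparison. Other probes in the dimmest of the 4 bins had medians of 0.40 at day 1 and 0.48 at day 7. In the brightest bin they had -0.01 and -0.03. Whether the 9 lay further above sham than other probes of their brightness was not tested. Trace amine receptors, another class of nasal receptors that bind volatile amines, gave 4 of 15 probes, with medians of 0.66 and 0.91. Taar8b had levels of -5.74 in sham, -3.36 at day 1 and -4.66 at day 7, Taar7h had -5.21, -4.41 and -4.12, and Taar9 had -2.17, -1.64 and -1.43. Among vomeronasal receptors, which detect pheromones, Vom2r40 had -1.57, -1.18 and -1.96.

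Genes outside the chemosensory receptors give other values for comparison. The 2 measured defensins had medians of 0.53 at day 1 and -0.94 at day 7, and 1 keratin-associated gene had 0.12 and 0.24. Chosen after their values were seen, 22 measured receptors with Gpr names had medians of 0.38 at day 1 and 0.62 at day 7, 8 protocadherins had 0.60 and 0.85, and 91 ribosomal protein genes had -0.03 and -0.11. Probes of other genes that span at most 1500 bases, like the 245 members that do, had medians of 0.18 and 0.28 at the members' brightness, and those of longer genes had 0.10 and 0.18. By median, the protocadherins differed from sham about as much as the members, the Gpr-named receptors less and the ribosomal protein genes not upward. In direction, 6 of the 8 protocadherins lay above sham at day 1 and 5 at day 7. The Gpr-named receptors had 18 and 17 of 22 above sham, and the ribosomal protein genes 43 and 28 of 91. Of the members, 81.3% and 82.8% lay above it.

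The genes that carry the olfactory signal in the nose were detected in part. Of 14 receptor signalling genes, 10 had a named probe and 5 were well above background on all arrays. Cnga2, Cnga4 and Cngb1, the subunits of the cyclic nucleotide channel, were well above background on no array. Adcy3, the olfactory adenylyl cyclase, was so in sham and at day 7 only, and Ric8b, which stabilises the olfactory G protein, in sham only. Of the 4 measured genes, none was higher and 1 was lower on each day. That was Pde1c, a phosphodiesterase that degrades cyclic AMP in sensory cilia, with levels of -3.63 in sham, -4.68 at day 1 and -5.18 at day 7. Pde4a, another phosphodiesterase, had -0.25, -0.09 and 0.67. Grk3, the kinase that desensitises receptors, had -4.90, -4.25 and -4.88, and Arrb2, the arrestin that binds them, had -0.45, -1.15 and -1.27.

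Markers of the olfactory epithelium gave the same picture. Of 7 marker genes of sensory neurons, 4 had a named probe, and Omp, the marker of the mature neuron, was well above background on no array, as was Cnga2. Ncam2, an adhesion molecule of these neurons that brain also expresses, was level at -0.63, -0.68 and -0.64. Of 4 markers of sustentacular and gland cells, Ugt2a1 and Obp3 were well above background on no array, and Obp1f had -2.97, -3.02 and -2.53. Of 10 genes for receptor choice, 2 had a probe, and Ebf1 had 1.11, 0.68 and 0.94. None of the 3 genes for membrane export of the receptors had a named probe.

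Markers of brain tissue were detected, while the hindbrain could be checked by a single gene. All 4 neuron markers with a probe were detected on every array, among them Snap25, a synaptic vesicle fusion protein, at 0.99 in sham, 1.16 at day 1 and 1.46 at day 7, and Nefl, the light neurofilament, at 1.70, 1.42 and 0.09. Slc32a1, the vesicular transporter for GABA and glycine, was level at 3.41, 3.50 and 3.40, while Slc6a5, the glycine transporter of inhibitory neurons, had 0.45, 0.33 and -4.81. Gad1, an enzyme of GABA synthesis, went the other way, with -5.26 in sham and -1.87 at day 7, and was not well above background at day 1. All 4 astrocyte markers were detected, with Gfap, the astrocyte filament, at -0.35, -0.45 and -0.61, Aqp4, the water channel, at -1.63, -1.58 and -0.38, Aldh1l1 at -1.30, -1.09 and -0.61, and Slc1a3 at 2.61, 2.60 and 2.44. All 4 oligodendrocyte markers were detected, with Mbp, a myelin protein, at 2.75, 2.06 and 1.46. Hoxa2, the single hindbrain marker with a probe of 4, had levels of 0.57 in sham, 0.58 at day 1 and -7.64 at day 7. It was well above background in sham and at day 1 only, so the day 7 array has no detected hindbrain marker here. Among markers measured on all arrays, Aqp4 was higher at day 7 and Nefl, Slc6a5 and Mbp were lower, so marker levels of these cells also differed at day 7. Their part in those values was not tested.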

How the data were processed

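RNA from the vestibular nuclei was measured on 3 Agilent rat arrays in 1 colour, with 1 µg of total RNA labelled with Cy3 per the labels. The deposited scanner files, read with Feature Extraction 10.7.3.1 per the file headers, hold a linear intensity for each spot, background-subtracted and not scaled between arrays, and other flags for detection, saturation and outliers. The authors' series table holds the same intensity: all 267 members equalled it within 0.1%. The array design uses the rat build rn4.

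Levels were log2 intensity minus the array's 75th percentile over non-control spots, computed in Python 3.11.15 (numpy 2.4.6, pandas 2.3.3). Other scalings used R 4.3.3 and limma 3.58.1, with normexp at an offset of 50. The files used here hold no gene-name column, so a GRCr8 RefSeq table gave the symbols of 10768 of 41012 probes by accession. They hold no mean signal, so normexp used the median signal. With 1 array per group, samples were grouped by label, counts use a fixed 2-fold size, and the number of arrays limits precision. The spread of 182 probes on 10 spots had a median SD of 0.09, 0.07 and 0.08 log2 in sham, day 1 and day 7. The 2-fold counts and the weighting by brightness were tested on simulated data with planted differences. The detection rule and its unequal limits between arrays were not simulated. No column belongs to an unlisted sample.

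Named were the 10 brightest members, the 6 highest and 6 lowest against sham on each day, the 4 highest and lowest between the days, the 4 with the smallest range, the 3 dimmest, the 3 brightest that missed on 1 array, and the olfactory and cell type lists. A gene of a list is given by its brightest probe. Members that were higher on both days, or opposite, were also named, as were examples of families and pairs, after their values were seen. The members and lists were chosen with earlier results of these data known. The alternatives were other scalings and backgrounds, a 1.5-fold size, and other member sets.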

Additional observations from a re-analysis of the deposited data

How the results depend on the processing

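The members' median lay above 0 against sham on both days under every alternative run, at 0.48 to 0.70 for day 1 and 0.55 to 0.83 for day 7. The upper ends came from the set with no filter on detection. Most of its probes were well above background on no array, and negative control spots were also brighter after surgery. None of 192 values of named members under other scalings or backgrounds changed direction. These members were picked for large differences, and the authors' table repeats the unscaled values. Scaling by a single value per array shifts all differences alike, so these values do not test direction in other members. Without scaling, and with the authors' table, the day 1 median was 0.48, the day 7 minus day 1 median 0.25 and the day 1 level -3.65. Quantile normalization gave a day 7 median of 0.57 and a sham level of -3.96, and cyclic loess gave 0.56 and -3.97. Normexp gave 16.1% higher and 0.749% lower at day 1, 19.5% higher at day 7, and levels of -3.75, -3.31 and -3.23. A 1.5-fold size gave 52.1% higher and 3.37% lower at day 1, 58.4% and 5.62% at day 7, and 15.4% and 12.7% between the days. Shares of other probes at that size are not given, so these counts have no comparison. In the dimmest bin, the 75th percentile of other probes was 0.83 at day 1 and 0.98 at day 7, both past 1.5-fold. Members above the median level had 7.52% lower at day 7, 8.27% lower between the days, and levels of -2.68, -2.24 and -2.12. With no filter on detection there were 1092 probes, and the 1083 of them with values on all arrays gave 5.36% lower at day 1, a day 7 median of 0.83 and 11.4% higher between the days. Without lettered copies, 3.38% were higher between the days. Chosen after seeing the data, members at least 4 times the limit in sham had 15.5% higher and 4.55% lower at day 1, 17.3% and 9.09% at day 7 with a median of 0.55, and 3.64% and 8.18% between the days. Without the 8 opposite members, also chosen after seeing the data, 0.772% were lower at day 7 and 2.32% between the days. The cause of these shifts was not tested. No paired analysis was possible because each group has 1 array, and for the same reason no replicate could be left out. The alternative without near-identical proteins was not run, since no protein table was used here, and the one by RefSeq symbol alone equals the result as given.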
